A study of Mus musculus with 9 samples.

Results

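The genes described here are the ligands and receptors of the TNF superfamily that the count table of a mouse lung RNA-seq study holds under their family names. They were chosen by symbol: Tnf, Fas, Fasl, Cd40, Cd40lg, Cd27, Cd70, Ltbr, Eda2r and the numbered Tnfsf and Tnfrsf genes, leaving out Tnfrsf4, Tnfrsf17 and Tnfrsf18. A further condition was a count of at least 10 in at least 3 of the 9 libraries. Of 37 genes with such a name, 36 met it, out of 21983 genes in the table. Only Cd70, the ligand of Cd27, did not, with 0 counts in all 9 libraries. The 36 genes comprise 14 ligands and 22 receptors.

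The study profiled whole lung of BALB/c mice in 3 groups of 3 libraries each. Control mice were normal mice given saline by mouth. Asthma mice were a chronic asthma model, also given saline by mouth. BSYQF mice had the same model and received Bu-Shen-Yi-Qi formula (a mixture of herbs used in Chinese medicine) by mouth at 20 g of raw herbs per kg of body weight, begun on day 14 and given for 6 weeks. The sources used here give neither the agent that caused asthma nor the age or sex of the mice. They also do not say that the 3 libraries of a group came from separate mice, so each p-value measures the spread between these libraries. The lung markers Sftpc, a surfactant protein gene, and Scgb1a1, a club cell gene, were abundant in all libraries (13505 to 25346 and 21126 to 47410 CPM, counts after scaling for library size).

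Ligands of this superfamily are trimers, mostly anchored in the cell membrane, and many can be shed. Receptors with a death domain can recruit adaptors that start cell death. Receptors without a death domain bind TRAF adaptors and activate NF-kB, and many of them give activated T and B cells survival and costimulatory signals. Decoy receptors bind a ligand without passing on its signal. In the asthmatic lung, members such as the CD30, OX40 and RANK systems are known for their roles in T cells, B cells and antigen-presenting cells.

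Library depth ran from 16286385 to 22819199 counts. Along the first principal component of all genes tested (51.6% of the variance) the library asthma 3 lay at 1.77, between the controls (-56.7 to -43.2) and the other asthma libraries (51.9 and 76.0). BSYQF 1 lay at 40.5, apart from BSYQF 2 and 3 (1.20 and -19.6). The mitochondrial share of counts was 10.3% in asthma 2 and 2.19% to 6.53% elsewhere. Summed T cell markers ran from 108 to 183 CPM in control, 133 to 183 in asthma and 191 to 259 in BSYQF libraries, and 0 of 8 tested passed in any comparison. Plasma cell markers ran from 596 to 772, 3370 to 4664 and 4252 to 4590 CPM, with 4 of 6 higher in asthma, and interstitial macrophage markers from 886 to 1110, 1331 to 1396 and 1468 to 2007 CPM, with 7 of 8 higher. Summed B cell markers ran from 194 to 500, 333 to 608 and 449 to 779 CPM (0 of 9 passed) and dendritic cell markers from 166 to 175, 194 to 247 and 209 to 226 CPM (3 of 8 higher in asthma). No marker in these 5 lists was at 0 in all libraries, and their part in the results below was not tested. In bulk lung, fewer cells of a type and less RNA per cell cannot be told apart.

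Promoter sequence introduces the pair of receptors with the highest fold changes in asthma against control. RefSeq start sites on GRCm38.p6 were matched for 27 of the 36 genes, with 31 windows of 250 bases before a start. Each window was searched on both strands for the kappa-B consensus, bound by NF-kB, and for the AP-1 site TGANTCA. These motifs share no bases in the windows described. Kappa-B matches lay in 3 of the 31 windows, 1 each of Tnfrsf8, Tnfrsf9 and Tnfrsf25, where 7.25% of all 32851 RefSeq windows held one. AP-1 matches lay in 6 of the 31 windows, 1 each of Tnfsf13, Tnfsf13b, Tnfsf14, Fas, Tnfrsf8 and Tnfrsf9, against 6.75% of all windows. Only Tnfrsf8 and Tnfrsf9 had both within the same window. They are shown because they are also the 2 members with the largest changes in that comparison, and capitals mark the matches. Of the 6 members called higher in that comparison that had a window, 2 had a kappa-B match and 2 an AP-1 match. Among the 21 other members with a window, 1 had a kappa-B match and 4 an AP-1 match. The first sequence is the Tnfrsf8 window, chr4:145315165-145315414 on the minus strand, which overlaps no annotated exon of Tnfrsf8 itself. It has kappa-B matches starting 168 and 167 bases and an AP-1 match starting 132 bases before the start. The second is the 30-base kappa-B site of Tnfrsf9 at chr4:150927946-150927975, plus strand, which lies before the downstream RefSeq start and inside an untranslated first exon of another annotated transcript. Its overlapping matches start 43 and 42 bases before that start, and an AP-1 match starts 15 bases before it. The third is the window before the upstream Tnfrsf9 start, chr4:150919905-150920154, plus strand, in an intron of a transcript that starts further upstream, with no match to either motif. The last is the 30-base kappa-B site of Tnfrsf25, a receptor that did not pass the test in any comparison, at chr4:152116305-152116334 on the plus strand, inside the gene and before its downstream start. A match is a description of letters and shows no binding.
Tnfrsf8: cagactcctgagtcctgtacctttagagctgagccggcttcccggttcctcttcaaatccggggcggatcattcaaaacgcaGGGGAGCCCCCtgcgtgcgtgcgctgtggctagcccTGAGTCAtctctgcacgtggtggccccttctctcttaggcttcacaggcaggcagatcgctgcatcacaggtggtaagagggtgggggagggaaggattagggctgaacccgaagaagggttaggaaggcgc
Tnfrsf9 downstream site: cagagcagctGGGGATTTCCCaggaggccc
Tnfrsf9 upstream window: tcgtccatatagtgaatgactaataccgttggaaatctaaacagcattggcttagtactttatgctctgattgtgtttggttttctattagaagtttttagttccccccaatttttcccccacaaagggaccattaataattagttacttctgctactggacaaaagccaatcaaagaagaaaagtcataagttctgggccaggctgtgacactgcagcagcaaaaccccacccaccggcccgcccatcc
Tnfrsf25 site: aaaggggtctGGGGGCCTCCacttctcaga

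Levels of different genes were compared as CPM per kilobase of exon (CPM per kb), averaged over the 9 libraries. The TNF receptor Tnfrsf1a was the most abundant member (62.1 CPM per kb), followed by the lymphotoxin beta receptor Ltbr (48.7), the TRAIL ligand Tnfsf10 (28.1), the second TNF receptor Tnfrsf1b (19.6) and the death receptor Tnfrsf21 (17.3). At the low end stood the ligands Tnfsf18 (0.218 CPM per kb), Tnfsf4 (0.327) and Tnfsf15 (0.480) and the receptor Eda2r (0.377). In all 35 pairs of neighbours in this order, the ranges over the 9 libraries overlapped. Tnf itself ranked 16, at 3.99 CPM per kb, and its receptors Tnfrsf1a and Tnfrsf1b ranked 1 and 4.

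**Figure D1:**
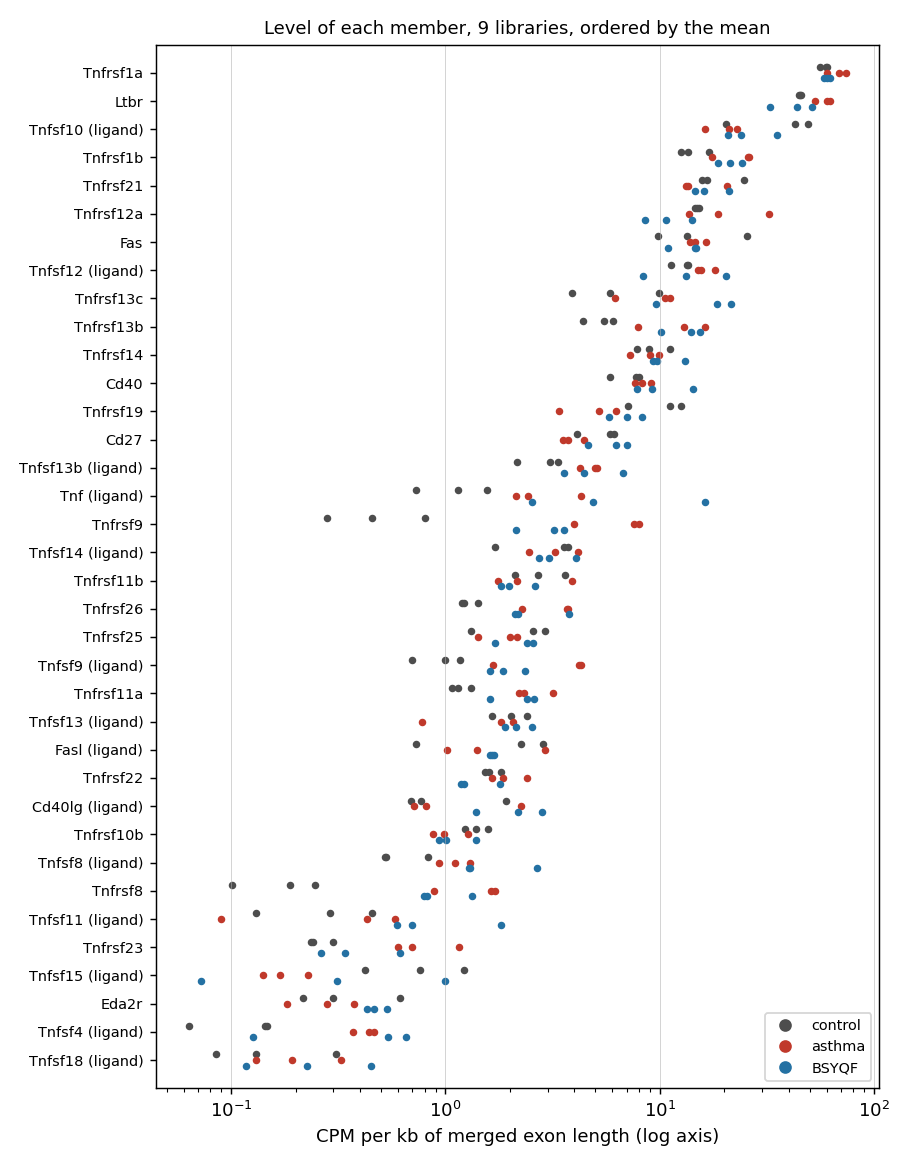
Level of each member in CPM per kb of merged exon length (log axis), genes ordered by the mean of the 9 libraries, with 1 point per library coloured by group. Tnfrsf1a (mean 62.1 CPM per kb) and Ltbr (48.7) head the order, and Tnfsf18 (0.218) ends it.

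The first comparison asked how the asthma model changed the lung relative to normal mice. Of the 36 members, 8 rose and 1 fell at a Benjamini-Hochberg adjusted p under 0.05 in edgeR's quasi-likelihood test. That is 25% of the members called, where 12.7% of the 14739 genes tested were called. By direction, 22.2% of members against 8.23% of all genes were higher, and 2.78% against 4.45% were lower. At an unadjusted p under 0.05, 15 members (41.7%) differed, against 34.1% of all genes. The groups did not overlap for 16 members (44.4%, against 40.4% of all genes). The receptors Tnfrsf9, Tnfrsf8, Tnfrsf23, Tnfrsf26, Tnfrsf13b, Tnfrsf11a and Tnfrsf1b and the ligand Tnfsf9 rose, and the receptor Tnfrsf19 fell. The median log2 fold change was 0.26 over the members and 0.02 over all genes.

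By role, the counts were as follows, beside 8.23% of all genes higher and 4.45% lower. Of 13 receptors without a death domain, 5 rose and 1 fell (median log2 fold change 0.51). Of 14 ligands, 1 rose (median 0.31), and of 3 decoy receptors, 1 rose (median 0.26). None of the 5 death domain receptors passed in the edgeR test, nor at an unadjusted p under 0.05, and their median was -0.27. Tnfrsf26, a receptor placed in none of these roles, also rose (log2 fold change 1.33). These are counts in a list chosen with earlier results known, and differences between the roles were not tested.

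**Figure D2:**
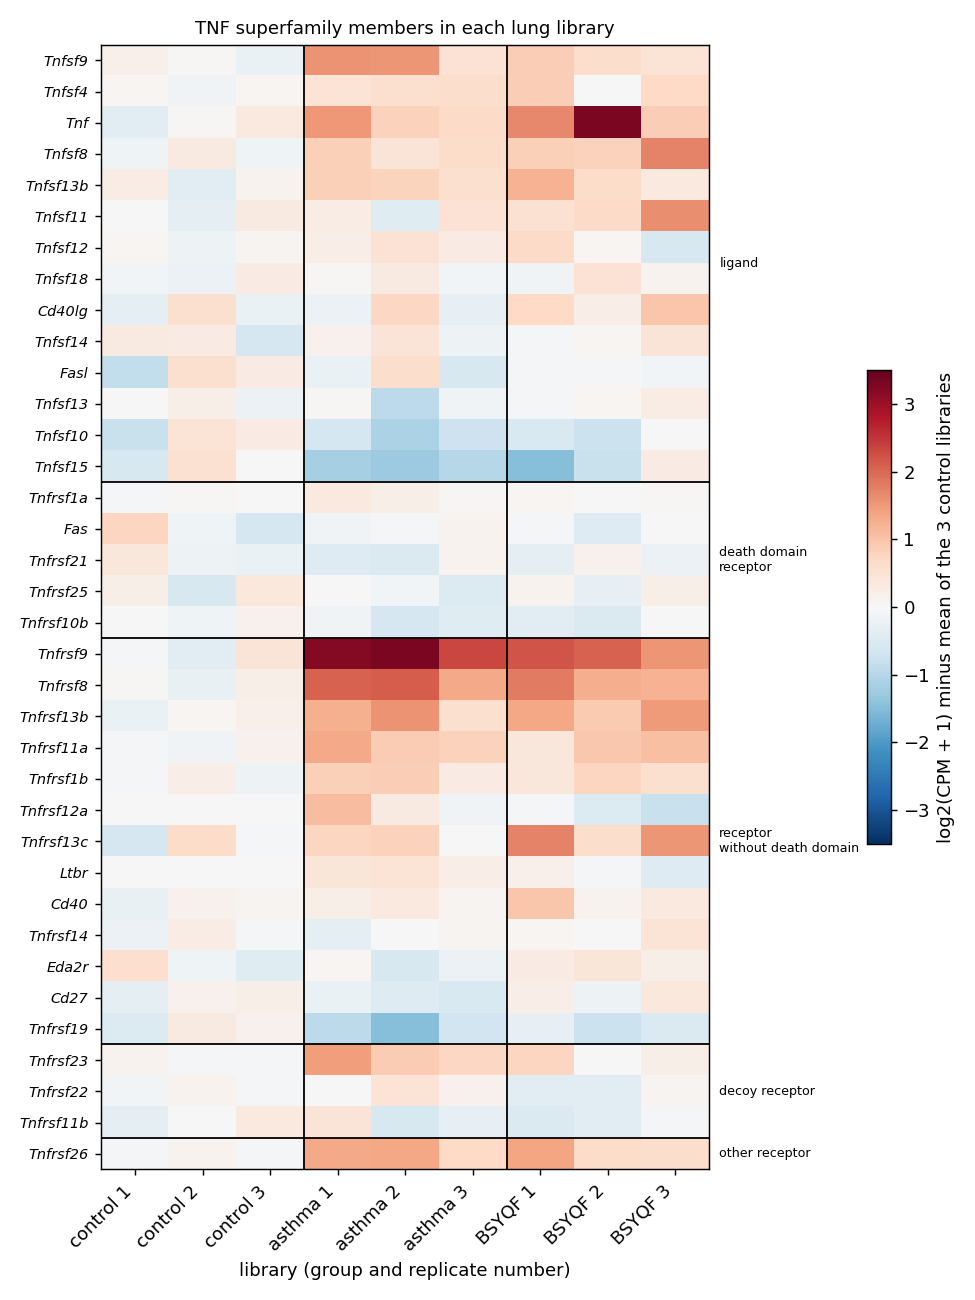
Heat map of the 36 members (rows, grouped by role) in the 9 lung libraries (columns), with colour for log2(CPM + 1) minus the mean of the 3 control libraries, red above and blue below. Tnfrsf9 and Tnfrsf8 are red in all 6 libraries of model mice, and Tnf is deepest in BSYQF 2 (26.6 CPM).

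Tnfrsf9 (CD137), a costimulatory receptor induced on activated T cells, lies on chr4:150914562-150946102, plus strand. Its level was 1.24, 0.761 and 2.18 CPM in the control libraries and 20.7, 21.7 and 10.8 CPM in the asthma libraries. In the BSYQF libraries it was 9.75, 8.71 and 5.83 CPM. All 6 libraries of model mice lay above all controls, and asthma 3 was the lowest of its group. The mean rose from 1.39 ± 0.722 to 17.7 ± 6.03 CPM (SD, n = 3 each), a log2 fold change of 3.65 ± 0.42 (SE) or 12.6-fold (edgeR adjusted p = 0.00293). Beside it, 0 of 8 tested T cell markers passed, with a median log2 fold change of 0.10, and the part of cell number was not tested.

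Its ligand Tnfsf9, carried by antigen-presenting cells, was at 1.51, 1.29 and 0.904 CPM in control, 5.55, 5.45 and 2.15 CPM in asthma and 3.03, 2.38 and 2.08 CPM in BSYQF libraries. The asthma libraries did not overlap with the controls, with asthma 3 again the lowest. The log2 fold change was 1.82 ± 0.44, or 3.52-fold (edgeR adjusted p = 0.0305). The antisense gene Gm11110 covers 14.9% of the exon bases of Tnfsf9, and the strand setting of the counting is not given in the sources used here. Both ligand and receptor of this pair rose in asthma, and no other ligand among the members passed the edgeR test.

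Tnfrsf8 (CD30), a receptor of activated lymphocytes long tied to type 2 responses, lies on chr4:145267137-145315164, minus strand. It stood at 0.648, 0.351 and 0.851 CPM in control, 5.66, 5.92 and 3.05 CPM in asthma and 4.60, 2.85 and 2.76 CPM in BSYQF libraries. Every model library was more than 2 CPM and every control was under 1 CPM. The rise in asthma was 7.76-fold, a log2 fold change of 2.96 ± 0.46 (edgeR adjusted p = 0.00873). Its ligand Tnfsf8 (CD30 ligand) had values of 1.999, 3.16 and 2.02 CPM in control, 4.98, 3.56 and 4.21 CPM in asthma and 4.97, 4.88 and 10.2 CPM in BSYQF libraries. The ligand's groups did not overlap either, but its difference of 0.83 ± 0.37 log2 did not pass (edgeR adjusted p = 0.142).

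The B cell receptor Tnfrsf13b (TACI) binds BAFF (Tnfsf13b) and APRIL (Tnfsf13). TACI levels were 12.4, 15.5 and 17.1 CPM in control, 36.8, 45.9 and 22.5 CPM in asthma and 39.6, 28.8 and 43.5 CPM in BSYQF libraries. All 6 model libraries exceeded all controls, and the log2 fold change in asthma was 1.22 ± 0.26 (2.33-fold, edgeR adjusted p = 0.0202). Plasma cell markers moved with it (4 of 6 higher, see the sums above), and their part was not tested. The third receptor of this system, Tnfrsf17 (BCMA), marks plasma cells and is outside the 36 genes. BCMA rose from 0.543 to 4.99 CPM in asthma (log2 fold change 3.17 ± 0.56, edgeR adjusted p = 0.0108). BAFF was at 23.1, 14.7 and 21.0 CPM in control, 35.1, 34.1 and 29.2 CPM in asthma and 46.3, 30.4 and 24.5 CPM in BSYQF libraries. Its groups did not overlap in asthma against control, but the difference of 0.74 ± 0.24 log2 did not pass (edgeR adjusted p = 0.0653). The BAFF receptor Tnfrsf13c, which sustains mature B cells, overlapped between these groups (adjusted p = 0.360).

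APRIL values were 3.30, 3.92 and 2.71 CPM in control, 3.40, 1.28 and 2.96 CPM in asthma and 3.09, 3.49 and 4.16 CPM in BSYQF libraries. They overlapped in every comparison. Both Tnfsf13 and its neighbour Tnfsf12 are uncertain, since 60% and 48.3% of their exon bases are shared with the joint gene Tnfsfm13, so reads may have been split or left uncounted.

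Tnfrsf11a (RANK), a receptor of osteoclast precursors and dendritic cells, rose 2.18-fold. Its levels were 6.86, 6.44 and 7.87 CPM in control, 19.0, 14.0 and 13.2 CPM in asthma and 9.63, 14.4 and 15.6 CPM in BSYQF libraries. Controls lay within 2 CPM of each other and below every model library. The log2 fold change in asthma was 1.12 ± 0.24 (edgeR adjusted p = 0.0204). The RANK ligand Tnfsf11 was scarce, at 0.648, 0.293 and 1.01 CPM in control, 0.962, 0.202 and 1.30 CPM in asthma and 1.33, 1.57 and 4.06 CPM in BSYQF libraries. Tnfsf11 control and asthma libraries overlapped, and the asthma libraries lay below the BSYQF libraries. Osteoprotegerin (Tnfrsf11b), the soluble decoy of RANK ligand, overlapped between all groups, with means of 7.90, 7.35 and 6.04 CPM in control, asthma and BSYQF.

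Among the TNF receptors, Tnfrsf1b (TNFR2), which lacks a death domain and is prominent on regulatory T cells and myeloid cells, rose 1.61-fold in asthma. It was at 51.7, 64.6 and 48.1 CPM in control, 98.0, 99.6 and 67.2 CPM in asthma and 71.5, 92.3 and 81.0 CPM in BSYQF libraries. All model libraries lay above all controls, and the log2 fold change in asthma was 0.69 ± 0.19 (edgeR adjusted p = 0.0406). Tnfrsf1a (TNFR1), the death domain receptor found on most cells, was at 144, 157 and 155 CPM in control, 191, 177 and 156 CPM in asthma and 160, 151.6 and 155 CPM in BSYQF libraries. Its control and asthma libraries overlapped (log2 fold change 0.20 ± 0.13, edgeR adjusted p = 0.288).

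Tnf, the founding ligand of the family, was at 1.19, 1.87 and 2.55 CPM in control and 7.02, 3.97 and 3.497 CPM in asthma libraries. BSYQF libraries had 7.99, 26.6 and 4.16 CPM. Every model library exceeded every control, and BSYQF 2 was more than 3 times the next library. The asthma difference of 1.36 ± 0.62 log2 did not pass the edgeR test (adjusted p = 0.147). In BSYQF against control the difference was 2.78 ± 0.63 log2 (edgeR adjusted p = 0.0555). Without BSYQF 2 it was 1.69, and it passed without asthma 3 or without BSYQF 3 (adjusted p = 0.0434 and 0.0210).

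The TRAIL decoy Tnfrsf23, a mouse receptor that binds TRAIL without a death signal, rose 3.13-fold in asthma. It was at 1.19, 0.936 and 0.958 CPM in control, 4.58, 2.76 and 2.38 CPM in asthma and 2.42, 1.05 and 1.35 CPM in BSYQF libraries. Asthma libraries lay above all controls, with a log2 fold change of 1.65 ± 0.47 (edgeR adjusted p = 0.0445). The neighbouring decoy Tnfrsf22 did not pass (0.25 ± 0.26 log2), with values of 6.48, 7.66 and 6.70 CPM in control and 6.96, 10.2 and 7.80 CPM in asthma. Tnfrsf22 and Tnfrsf23 share 17.3% and 18% of their 50-base words with each other, so some reads cannot be assigned to either with certainty.

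Tnfrsf26, a mouse receptor of the same chromosome 7 cluster whose ligand is not established, was at 3.94, 4.56 and 3.83 CPM in control, 11.89, 11.97 and 7.31 CPM in asthma and 12.2, 7.03 and 6.82 CPM in BSYQF libraries. All 6 model libraries exceeded all controls, and the asthma log2 fold change was 1.33 ± 0.30 (2.52-fold, edgeR adjusted p = 0.0243). An antisense gene, E230032D23Rik, overlaps 4.14% of the exon bases of Tnfrsf23 and 3.33% of those of Tnfrsf26.

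TRAIL itself (Tnfsf10), a ligand that can kill cells through the death receptor Tnfrsf10b, was at 107, 259 and 226 CPM in control, 121, 85.4 and 110 CPM in asthma and 126, 110 and 186 CPM in BSYQF libraries. The groups overlapped through control 1. The asthma difference of -0.90 ± 0.30 log2 did not pass (edgeR adjusted p = 0.0705), and it passed when control 1 was left out (-1.20 log2, adjusted p = 0.0357). Tnfrsf10b had 7.56, 6.73 and 8.62 CPM in control and 6.96, 4.77 and 5.38 CPM in asthma libraries, overlapping, with a log2 difference of -0.42 ± 0.26.

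The only member called lower in the edgeR test was Tnfrsf19 (TROY), a receptor known from epithelial stem cells. It was at 33.8, 59.7 and 52.9 CPM in control, 24.7, 16.1 and 29.7 CPM in asthma and 39.1, 27.5 and 33.3 CPM in BSYQF libraries. Asthma libraries lay below all controls, and control 1 was the lowest control. The log2 fold change was -1.05 ± 0.26 (edgeR adjusted p = 0.0317). Beside it, summed fibroblast markers were 4977 to 5542 CPM in control and 1918 to 4069 CPM in asthma libraries (1 of 8 fell), alveolar type 1 markers 7559 to 8225 and 3859 to 6945 CPM (2 of 7 fell), lung endothelial markers 3858 to 5347 and 2444 to 4173 CPM (2 of 10 fell), basal and squamous cell markers 7.78 to 10.96 and 3.05 to 3.91 CPM (2 of 4 tested fell), adipocyte markers 56.2 to 316 and 5.94 to 15.0 CPM (5 of 6 fell) and cardiac muscle markers 415 to 937 and 120 to 219 CPM (6 of 7 fell). None of these markers was at 0 in all libraries, and their part in the change of Tnfrsf19 was not tested.

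**Figure D3:**
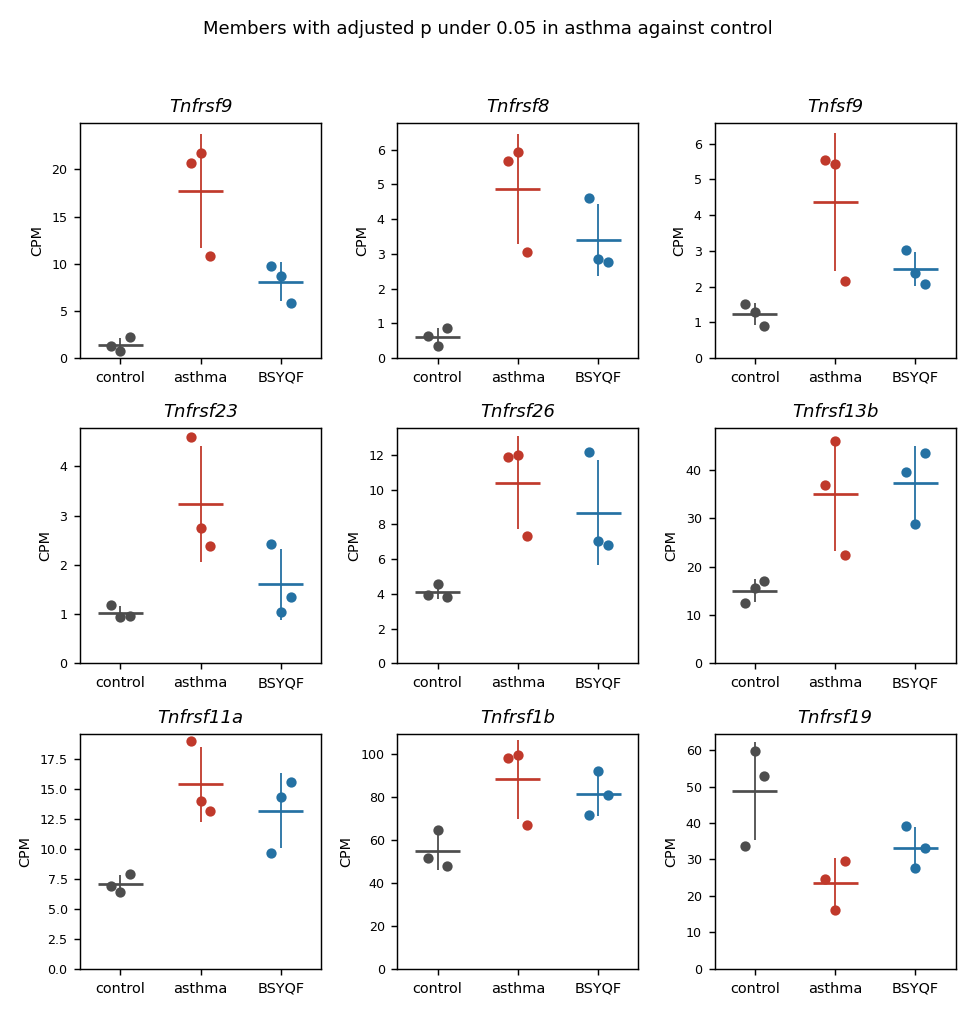
CPM of the 9 members called in asthma against control, with 1 point per library, a horizontal line at the group mean and a vertical line of ± 1 SD (n = 3). The 3 asthma points lie above the 3 control points for the 8 genes that rose and below them for Tnfrsf19, and asthma 3, the rightmost asthma point, is lowest in Tnfrsf9 (10.8 CPM) and Tnfrsf8 (3.05 CPM).

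Of the other abundant receptors, Ltbr and Tnfrsf21 did not pass. Ltbr, which binds membrane lymphotoxin and LIGHT (Tnfsf14) and shapes lymphoid tissue, was at 104.5, 106 and 108 CPM in control, 142, 147 and 124 CPM in asthma and 121, 103 and 77.2 CPM in BSYQF libraries. Its control and asthma libraries did not overlap, but the difference of 0.38 ± 0.16 log2 did not pass (edgeR adjusted p = 0.132). Tnfrsf21 (death receptor 6) was at 102.02, 68.0 and 64.9 CPM in control, 55.5, 54.2 and 84.3 CPM in asthma and 60.1, 86.0 and 65.8 CPM in BSYQF libraries, with overlap throughout (-0.27 ± 0.23 log2 in asthma).

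Further members did not pass. Of these, Tnfsf15, a ligand of Tnfrsf25, was at 1.40, 4.10 and 2.55 CPM in control and 0.566, 0.471 and 0.762 CPM in asthma libraries, without overlap (-2.13 ± 0.79 log2, edgeR adjusted p = 0.0886). Tnfsf4 (OX40 ligand) was at 0.270, 0.117 and 0.266 CPM in control and 0.679, 0.807 and 0.852 CPM in asthma libraries. Its controls, with 5, 2 and 5 counts, lay close to the limit that a count of 3 gives (0.134 to 0.202 CPM). The asthma libraries had 12, 12 and 19 counts. The difference of Tnfsf4 did not pass (edgeR adjusted p = 0.113). Its receptor Tnfrsf4 (OX40), outside the 36 genes, rose from 1.52 to 4.68 CPM (log2 fold change 1.61 ± 0.42, edgeR adjusted p = 0.0371). For Fas, Fasl, Cd40, Cd40lg, Cd27, Tnfrsf25, Tnfrsf14, Tnfsf14, Tnfsf18, Tnfrsf12a and Eda2r control and asthma libraries overlapped, with edgeR adjusted p from 0.183 to 0.876. Tnfsf12 did not overlap but had a difference of only 0.35 ± 0.27 log2.

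Stability differed between the called members. Tnfrsf9 and Tnfrsf8 were called in all 9 fits that left out 1 library and in all 9 other settings tried, with log2 fold changes from 3.36 to 4.13 and from 2.68 to 3.26. The other 7 called members lost the call without control 2, control 3, asthma 1 or asthma 2, and 6 of them (not Tnfrsf19) without control 1. Tnfrsf1b and Tnfrsf23 also lost it without BSYQF 2 (adjusted p = 0.0580 and 0.0566), and limma voom did not call Tnfrsf23 and Tnfsf9. The number of members called was 4 without control 1, 2 without each of the other 4 libraries named and 11 without asthma 3. Over all genes the called share moved too: without asthma 3 it was 28.5%, beside 30.6% of the members, where with all libraries the shares were 12.7% and 25%. The members thus stood close to the background in that fit. Without control 1 it was 2.94%, beside 11.1% of the members, and without the other 4 it was 1.15% to 2.39%, beside 5.56%. Calls were gained by Tnfsf13b without asthma 3, BSYQF 1 or BSYQF 3 (adjusted p = 0.0447, 0.0323 and 0.0459), by Tnfsf15 without BSYQF 1 (0.0364) and by Tnfrsf12a without asthma 3 (0.0440). With all libraries kept, DESeq2 also called Tnfsf13b as higher and Tnfsf10 and Tnfsf15 as lower. The fit of only the 2 groups compared added Tnfsf13b and Tnfsf15. No called member changed direction in any fit.

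The second comparison asked what the formula changed within the model. None of the 36 members passed the edgeR test in BSYQF against asthma, where 0.00678% of all genes were called, and DESeq2 and limma voom also called 0 members. At an unadjusted p under 0.05, 7 members (19.4%) differed, against 7.94% of all genes, and 5 (13.9%) did not overlap, against 9.75%. The median log2 difference was 0.07 over the members, 0.37 over the ligands and -0.13 over the receptors, and -0.005 over all genes.

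Lower values were seen for 4 of the 7 (11.1% of members, against 4.15% of all genes). Tnfrsf9 was 8.71 CPM or more in 2 of the BSYQF libraries and 5.83 CPM in the third, all below the lowest asthma library at 10.8 CPM. Its log2 difference was -1.13 ± 0.37 (edgeR adjusted p = 0.562). Tnfrsf12a, the receptor of TWEAK that is induced in injured tissue, was at 28.3, 28.8 and 29.4 CPM in control, 62.5, 36.1 and 26.4 CPM in asthma and 27.3, 20.6 and 16.5 CPM in BSYQF libraries. The controls were tight, asthma 1 stood high, and asthma and BSYQF overlapped through asthma 3 (log2 difference -0.96 ± 0.29, edgeR adjusted p = 0.509). Ltbr did not overlap between asthma and BSYQF (-0.46 ± 0.16 log2, edgeR adjusted p = 0.581). Tnfrsf23 did overlap (-1.01 ± 0.45 log2, edgeR adjusted p = 0.622).

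Higher values were seen for 3 (8.33% of members, against 3.79% of all genes). Tnfrsf13c was at 7.94, 20.2 and 11.97 CPM in control, 21.7, 22.8 and 12.6 CPM in asthma and 43.8, 19.7 and 38.0 CPM in BSYQF libraries, with overlap through BSYQF 2 (0.83 ± 0.37 log2, edgeR adjusted p = 0.622). Cd27, a receptor of memory lymphocytes, was at 9.56, 13.7 and 14.3 CPM in control, 10.3, 8.67 and 8.25 CPM in asthma and 14.6, 10.8 and 16.3 CPM in BSYQF libraries, without overlap between the last 2 groups (0.62 ± 0.23 log2, edgeR adjusted p = 0.588). Beside these, summed B cell markers were at 333 to 608 CPM in asthma and 449 to 779 CPM in BSYQF libraries, which overlap, and summed T cell markers at 133 to 183 and 191 to 259 CPM, which do not. edgeR called 0 of 9 and 0 of 8 of these markers, and their part was not tested. Tnf differed by 1.42 ± 0.59 log2 (edgeR adjusted p = 0.616), which was 0.33 without BSYQF 2.

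The other members without overlap were Tnfsf11 (1.46 ± 0.71 log2, edgeR adjusted p = 0.622) and Eda2r, a receptor of ectodysplasin A2, with 2.21, 1.08 and 1.66 CPM in asthma and 2.72, 3.14 and 2.55 CPM in BSYQF libraries. Both were higher in BSYQF. A p that misses the threshold does not show that asthma and BSYQF lungs were alike.

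**Figure D4:**
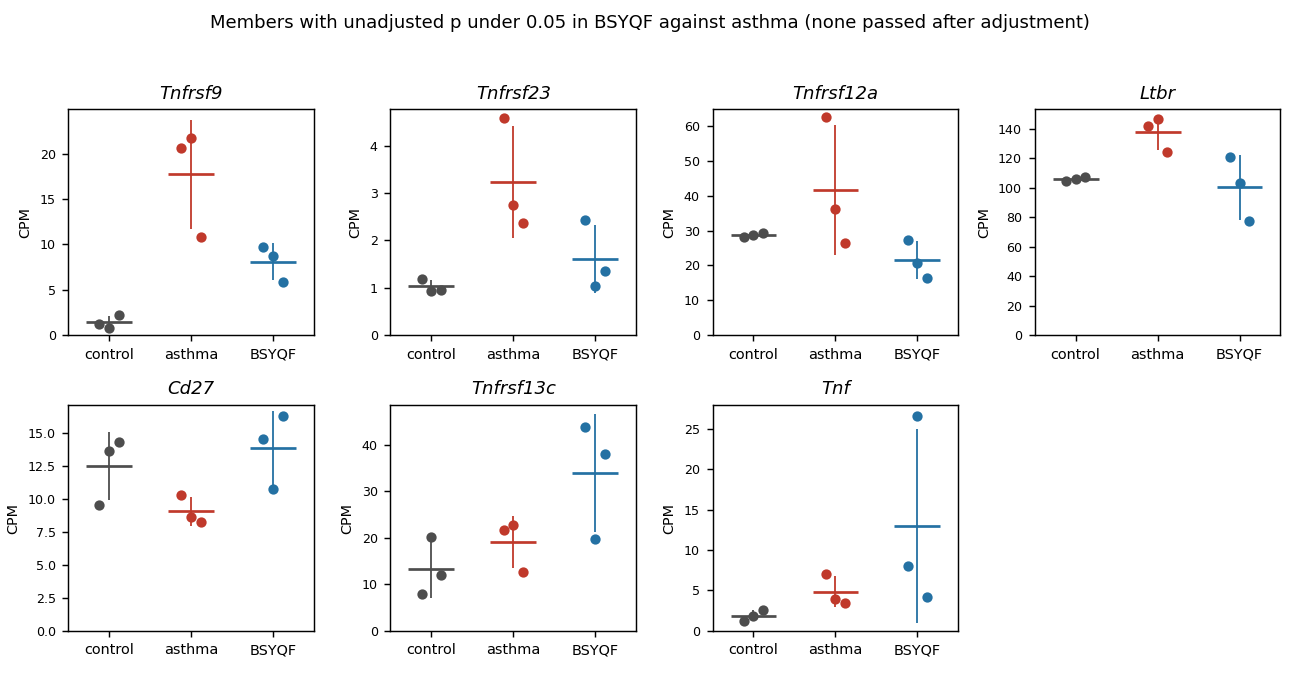
CPM of the 7 members with an unadjusted p under 0.05 in BSYQF against asthma, with 1 point per library, the group mean and ± 1 SD (n = 3). Tnfrsf9 lies between control and asthma in every BSYQF library (5.83 to 9.75 CPM), and the Tnf mean rests on BSYQF 2 (26.6 CPM), with none of these differences passing after adjustment.

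The third comparison set the treated model against normal mice. In BSYQF against control 3 members passed (8.33%, against 1.67% of all genes), all of them higher, where 1.63% of all genes were higher. Tnfrsf9 was higher by 2.52 ± 0.41 log2 (5.75-fold, edgeR adjusted p = 0.0161), Tnfrsf8 by 2.44 ± 0.46 (5.43-fold, adjusted p = 0.0277) and Tnfrsf13b by 1.31 ± 0.26 (2.49-fold, adjusted p = 0.0338). At an unadjusted p under 0.05, 14 members (38.9%) differed, against 15.8% of all genes. All 14 were higher, as were 10.1% of all genes. The groups did not overlap for 12 members (33.3%, against 24.8%). This comparison and asthma against control use the same 3 control libraries, so their values are set side by side only. For the 8 members that rose in asthma, the mean log2 level above the control mean was 2.02, 1.94 and 1.21 in asthma 1, 2 and 3 and 1.47, 1.15 and 1.15 in BSYQF 1, 2 and 3. All 8 lay above all controls in each model library apart from BSYQF 2, where 7 did. These 8 were picked for being higher in asthma, so their place above control in the asthma libraries was set by that choice. The choice also favours high asthma values, so the lower BSYQF means are no measure of an effect of the formula.

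The 5 members that rose in asthma but did not pass in BSYQF against control were Tnfsf9 (1.82 against 1.01 log2), Tnfrsf23 (1.65 against 0.64), Tnfrsf26 (1.33 against 1.07), Tnfrsf11a (1.12 against 0.90) and Tnfrsf1b (0.69 against 0.57). Tnfrsf19 was -1.05 in asthma and -0.55 in BSYQF. These 6 were likewise picked by their asthma values, and the test of asthma against BSYQF itself passed for none of them. Ligands had a median of 0.68 log2 in BSYQF against control, with 0 of 14 called in the edgeR test. Tnfsf8 was 1.48 ± 0.37 log2 higher (edgeR adjusted p = 0.0787) and Tnfrsf13c 1.34 ± 0.38 (adjusted p = 0.112). In this comparison DESeq2 called 8 members (22.2%, against 5.6% of all genes) and limma voom 0 (against 0.611%). Leaving out control 1, control 2 or control 3 gave 0 members, against 0.483%, 0.114% and 0.0603% of all genes. Without BSYQF 1, which lay apart from the others of its group, or without asthma 1, the call remained for Tnfrsf9 alone. That was 2.78% of the members, against 0.684% of all genes without BSYQF 1 and 0.978% without asthma 1. Tnfrsf8 also lost the call without BSYQF 2 (adjusted p = 0.0535) and Tnfrsf13b without BSYQF 3 (adjusted p = 0.0694) or with the replicate block (adjusted p = 0.0564). Without asthma 3 there were 4 calls (11.1% of the members, against 3.77% of all genes).

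**Figure D5:**
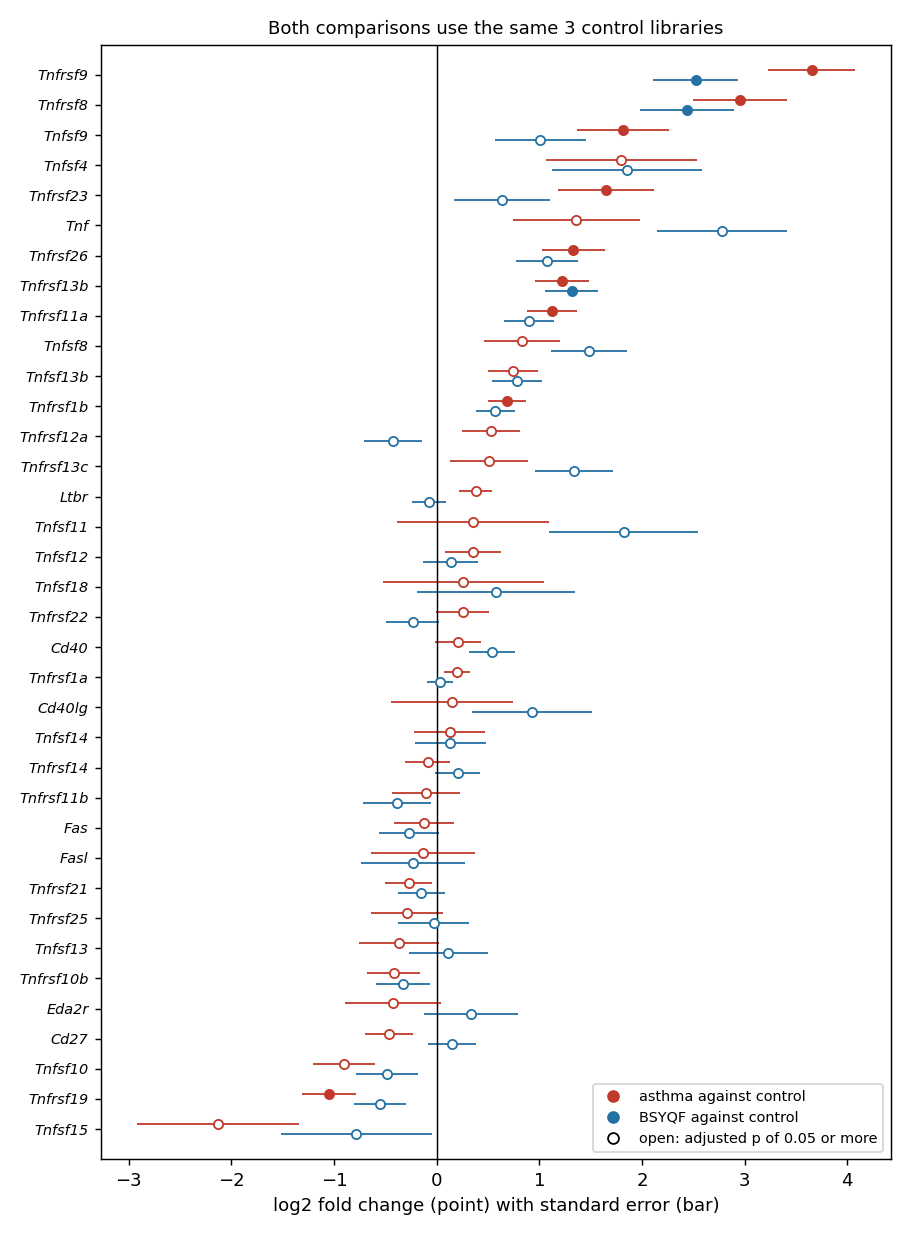
Log2 fold change (point) and standard error (bar) of each member in asthma against control (red) and BSYQF against control (blue), ordered by the red value, with open points for an adjusted p of 0.05 or more and the same 3 control libraries in both. Tnfrsf9 (3.65 and 2.52) and Tnfrsf8 (2.96 and 2.44) head the order, and 3 blue points are filled.

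The authors' deposited table of asthma against control lists 11 members among 1746 genes, which the labels give as those past limits on log2 size and p-value: the 9 called here apart from Tnfrsf1b, together with Tnfsf15, Tnf and Tnfsf4. Calls here use an adjusted p and no limit on log2 size, and Tnfrsf1b differed by 0.69 log2 here. The authors' deposited table gives an adjusted p of 0.00380 for Tnfsf15, 0.0218 for Tnf and 0.127 for Tnfsf4, so a listed gene need not pass after adjustment. Tnfrsf9 has a log2 fold change of 3.64 in the authors' deposited table. The authors' deposited table of BSYQF against asthma lists Tnfrsf9 (-1.12, adjusted p = 0.150) and Tnf (1.43, adjusted p = 0.547) among 424 genes. In the authors' deposited table of BSYQF against control 9 members are listed among 896 genes: Tnfrsf9, Tnfrsf13b, Tnf, Tnfrsf8, Tnfrsf13c, Tnfsf8, Tnfrsf26, Tnfsf11 and Tnfsf9. The authors' deposited table gives Tnf 2.77 log2 (adjusted p = 8.3e-05) and Tnfrsf13c 1.33 (adjusted p = 0.00713). The authors' deposited table also gives Tnfsf8 1.48 (adjusted p = 0.00907) and Tnfrsf26 1.07 (adjusted p = 0.0198). None of these passed in edgeR's quasi-likelihood test here. These tables come from the same libraries and give no separate support.

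Downstream of the receptors, the pathway genes were read from lists, beside 8.23% of all genes higher in asthma. Of 33 tested adaptors and kinases of TNF signalling, 2 rose in asthma, Siva1, an adaptor that binds CD27 (log2 fold change 0.92 ± 0.23, edgeR adjusted p = 0.0332), and Birc3, a ubiquitin ligase of the TRAF complex (0.51 ± 0.15, adjusted p = 0.0475). Traf5 was at 0. As a share, 2 of 33 is below that of all genes. Of 5 NF-kB subunits 1 rose, Relb of the noncanonical pathway that RANK, CD30 and BAFF receptor engage, from 25.6 ± 4.20 to 43.5 ± 6.07 CPM (0.76 ± 0.16 log2, adjusted p = 0.0202). Of 16 feedback inhibitors and deubiquitinases 4 rose: Tnfaip8 (1.12 ± 0.18), Tnip3 (2.61 ± 0.46), Nfkbie (0.91 ± 0.22) and Nfkbiz (0.61 ± 0.18). Of 4 genes of ligand shedding 1 rose, Rhbdf2, a partner of the TNF convertase (0.75 ± 0.21 log2, adjusted p = 0.0423), while the convertase Adam17 differed by 0.16 ± 0.14. No gene of these 4 lists fell.

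Of 24 response genes of TNF and NF-kB, 8 rose in asthma and 0 fell. The smallest p belonged to Bcl2a1d, a survival gene (1.43 ± 0.23 log2), and the chemokines Ccl2 (4.25 ± 0.67), Ccl7 (4.91 ± 0.81) and Cxcl5 (5.14 ± 0.88), with edgeR adjusted p from 0.00873 to 0.0114. Ccl2 was at 1.30, 0.995 and 2.29 CPM in control, 48.2, 31.9 and 8.11 CPM in asthma and 4.36, 10.7 and 4.42 CPM in BSYQF libraries. Asthma 3 was again the lowest of its group. The median log2 fold change was 0.06 over the adaptors and kinases, 0.42 over the feedback inhibitors and 0.59 over the response genes. It was -0.10 over the NF-kB subunits and -0.003 over the genes of ligand shedding, beside 0.26 over the 36 members. In BSYQF against control, 3 of 16 feedback inhibitors and 5 of 24 response genes were higher, beside 1.63% of all genes. In BSYQF against asthma edgeR called 0 genes of any of these lists.

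Of the 10 listed genes outside the 36 (superfamily genes and the adaptor Edaradd), Tnfrsf17 and Tnfrsf4 rose in asthma, as given above, and no other passed. The lymphotoxins, ligands of Ltbr and the TNF receptors, differed by 1.19 ± 0.60 log2 for Lta (edgeR adjusted p = 0.182) and 0.33 ± 0.26 for Ltb (adjusted p = 0.388). Ltb was the more abundant, at 52.4 CPM per kb in control against 0.836 CPM per kb for Lta. Tnfrsf18 (GITR), a receptor of regulatory T cells, was at 4.43, 6.44 and 4.95 CPM in control, 7.02, 6.25 and 4.44 CPM in asthma and 8.24, 7.96 and 8.64 CPM in BSYQF libraries. Its BSYQF libraries lay above all others, and the difference from control, 0.65 ± 0.26 log2, did not pass (edgeR adjusted p = 0.257).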

How the data were processed

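Lung RNA went into 9 libraries with an NEBNext Ultra kit, per the labels' protocols. Per the submitters' processing notes the tools were FastQC, cutadapt, STAR, HTSeq and DESeq2 with build mm10. Tool versions, annotation and strandedness of the counting are not given in these sources. Raw counts, deposited by the authors for 21983 gene symbols in each library, entered every test. The authors also deposited 3 comparison tables with log2 fold changes and p-values, and 36 further per-library columns in them were not used.

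Groups follow the group names of the labels. Counts were filtered with filterByExpr, scaled with TMM and fitted in 1 model of the 3 groups with edgeR 4.0.16 in R 4.3.3 (quasi-likelihood test, robust). A call is an adjusted p (Benjamini-Hochberg, 14739 genes) below 0.05. CPM uses TMM-scaled library sizes, and CPM per kb divides by merged exon length in GENCODE (GRCm38). Alternatives used DESeq2 1.42.0 and limma 3.58.1, other scalings and filters, 2 groups only, a replicate block and each library left out. The code was tested on simulated data. Replicates differed by more than sampling noise (chi-square per degree of freedom 24.3 to 147), so none was counted as a duplicate.

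The members and lists were chosen with earlier results of these data known. Values per library are given for called members, their partners, members with unadjusted p under 0.05 in BSYQF against asthma and the 5 members with the highest level per kb. Of each pathway list up to 4 called genes with the smallest p are named. Tnfrsf4, Tnfrsf17, Tnfrsf18, Lta, Ltb, Adam17 and the values per library of Ccl2 and of further members were chosen after their values were seen.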

Additional observations from a re-analysis of the deposited data

How the results depend on the processing

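Asthma against control called 1869 genes, 3315 with DESeq2, 1012 with a log2 size of at least 1, and 171 to 4262 when 1 library was left out. Members called there were 9 (25%, against 12.7% of all genes), 12 with DESeq2 (33.3%, against 22.5%) and 11 with only the 2 groups compared (31.4%, against 13.8%). With 1 library left out, 2 to 11 members were called (5.56% to 30.6%, against 1.15% to 28.5% of all genes). BSYQF against asthma called 1 gene, 123 with DESeq2, 0 with limma voom, 0 with only the 2 groups compared and 0 to 114 with 1 library left out, and 0 members under every setting. BSYQF against control called 246 genes, 826 with DESeq2, 90 with limma voom, 389 with only the 2 groups compared and 9 to 563 with 1 library left out. Members called there were 3 (8.33%, against 1.67% of all genes), 8 with DESeq2 (22.2%, against 5.6%) and 0 with limma voom (against 0.611%). With 1 library left out, 0 to 4 members were called (up to 11.1%, against 0.0603% to 3.77% of all genes). The causes were not tested. With the replicate number as a block, 1469, 15 and 237 genes (9.97%, 0.102% and 1.61%) and 9, 0 and 2 members (25%, 0% and 5.56%) were called. The labels do not say that a number pairs libraries, and deviations of same-numbered libraries correlated at -0.259 to 0.339. A newer dispersion method, chosen after seeing the data, called 1944, 1 and 269 genes.

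Among 1940 alternative values, 57 lost and 18 gained a call and 0 called values reversed. In 54 the sign differed where neither value was called. Precision was limited by 3 libraries a group, with a biological coefficient of variation of 0.244, and the size of change detectable for scarce ligands was not tested. Where a library was left out of an arm, the model shared its spread over the groups.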
